A study of Mus musculus with 20 samples.

Results

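This account describes what happened to ribosome-protected footprints, gene by gene, when mouse embryonic stem cells homozygous for the eIF2alpha A/A allele were moved out of 2i. It compares 3 libraries of A/A cells grown with LIF alone (KI LIF) and 3 libraries of A/A cells grown with LIF and 2i (KI LIF/2i), all made with micrococcal nuclease (MNase). These are 6 of the 20 libraries in the count table. They are picked by their labels for genotype, medium and nuclease. Both groups carry the A/A knock-in (KI), so the allele itself is not what differs between them. Both media held LIF at 1000 U/mL and a serum-free base with KnockOut serum replacement. LIF/2i added PD0325901, an inhibitor of the kinase MEK, and CHIR99021, an inhibitor of the kinase GSK3, and the LIF cultures had gone 6 days without them. Lysates contained cycloheximide, monosomes were collected, and fragments of 25 to 40 nucleotides were kept. The 6 libraries of eIF2alpha +/+ cells (wild type, WT) made with MNase in the same media, and the 4 KI libraries made with RNase I, serve for comparison only. Nothing in the sources used here says whether replicates came from separate cultures, clones or lines, and the p-values therefore reflect only how these libraries vary, which may be technical.

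The pair of inhibitors known as 2i holds mouse embryonic stem cells in the naive state. The MEK inhibitor blocks the signal that FGF4, made by the cells themselves, sends through ERK toward differentiation. The GSK3 inhibitor stabilises beta-catenin and so relieves repression by TCF7L1 on naive genes, while LIF acts through the receptor chain gp130 and STAT3. Cells without 2i move toward a formative state marked by OTX2 and the de novo DNA methyltransferases. The protein eIF2alpha is a subunit of the factor that brings initiator tRNA to the ribosome. Stress kinases phosphorylate it, which slows initiation on most mRNAs and favours translation of ATF4, a transcription factor for amino acid transport, amino acid synthesis and tRNA charging. This is the integrated stress response. The A/A protein has alanine in place of the serine that is phosphorylated, so this branch cannot start through eIF2alpha. A footprint count combines the amount of an mRNA with how heavily it is translated. No RNA libraries were analysed here, so the 2 cannot be told apart in any value below, nor can fewer cells expressing a gene and less of it per cell.

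The 6 KI MNase libraries held 6560173 to 8894080 counts each, with 15022 to 15725 genes detected. Values are given as CPM, the standard rate of counts over library size, here after TMM scaling, with replicates in the order 1, 2, 3. KI replicate 1 stood apart from replicates 2 and 3 in both media. The first principal component of the 6 libraries separated the media with 55.3% of the variance, and the second, with 29.4%, separated replicate 1 from the others. The Y-linked helicase gene Ddx3y read 69.9, 1.02 and 0.706 CPM in LIF/2i and 21.8, 1.45 and 4.13 in LIF, high in replicate 1 of both media. The labels do not say whether KI replicate 1 is of the same line as replicates 2 and 3, and this was not tested. Without it in both media 3170 genes were called, 1421 higher and 1749 lower, against 2403 with it, and 2125 were called both ways. List counts without it are given where they differ most. Eif2s1, which encodes eIF2alpha, read 138, 178 and 159 CPM in LIF/2i and 133, 130.4 and 135 in LIF. Its LIF minus LIF/2i log2 fold change of -0.25 (SE 0.13) was not called (adjusted p = 0.19, edgeR), and gene counts cannot show the codon change.

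Leaving 2i changed the footprint counts of 2403 of 12806 tested genes in KI cells (18.8%; edgeR quasi-likelihood test, adjusted p under 0.05). Of these, 1076 were higher in LIF (8.4% of those tested) and 1327 were lower (10.4%). A change of at least 2-fold was called for 747 genes upward (5.83%) and 644 downward (5.03%). The 3 and 3 libraries did not overlap in CPM for 4465 genes (34.9%). The median log2 fold change of all tested genes was -0.00 with TMM. It was 0.10 with scaling by library totals, which split the calls into 1413 higher and 1018 lower, the opposite balance. Fitting the replicate number as a block gave 3600 calls, 1682 higher and 1918 lower, and 2378 of the 2403 were among them. Without KI LIF replicate 3 there were 1482 calls and without KI LIF/2i replicate 2 there were 1517.

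**Figure D1:**
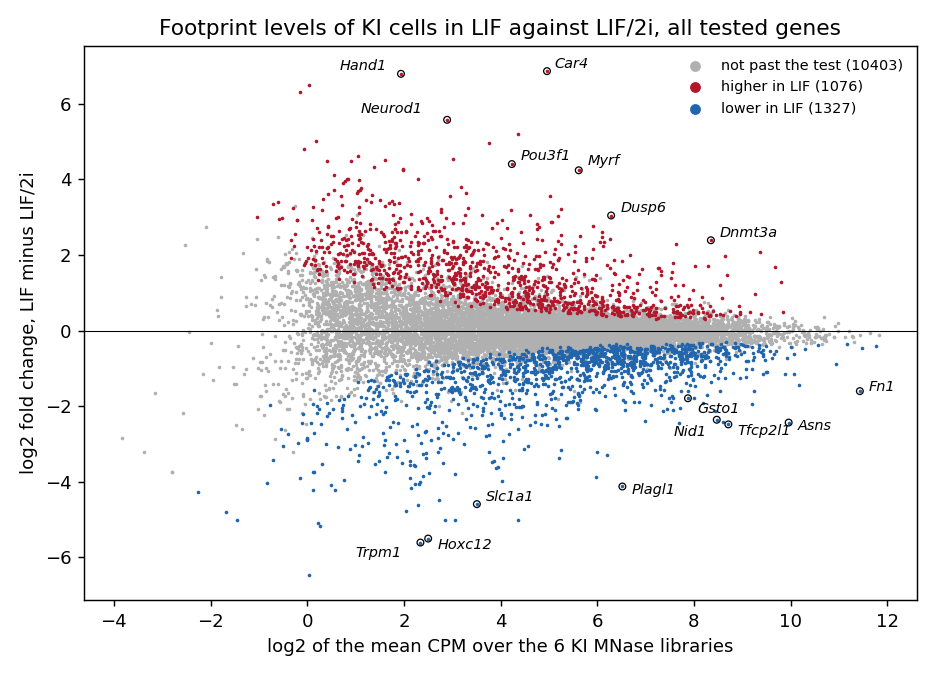
Each point is a tested gene, placed by the log2 of its mean CPM over the 6 KI MNase libraries (x axis) and its LIF minus LIF/2i log2 fold change (y axis), red where higher in LIF, blue where lower and grey where not past the test; circled genes are named. Called genes lie on both sides of 0, with 1076 higher and 1327 lower, and spread widest at low CPM.

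The largest rises were taken over called genes averaging 5 CPM or more whose libraries did not overlap (14.6% of those tested). Car4, Neurod1, Wt1 and Vgf were scarcely covered in LIF/2i and passed the 5 CPM filter only through their LIF libraries. Their low coverage in LIF/2i thus follows from the choice. Car4, a membrane carbonic anhydrase, had 0.153, 1.02 and 0.282 CPM in LIF/2i and 28.5, 61.9 and 94.8 in LIF (log2 fold change 6.86, SE 0.72, adjusted p = 6.2e-05). Neurod1, a neurogenic transcription factor, went from 0.458, 0.128 and 0.282 CPM to 30.8, 5.36 and 7.59 (5.58, SE 0.85, adjusted p = 0.00074). Wt1, a zinc finger transcription factor, went from 0, 0.896 and 1.55 CPM to 15.4, 24.5 and 39.3 (4.95, SE 0.59, adjusted p = 0.00013). The choice of genes itself required every LIF library to be above every LIF/2i library, and the LIF libraries of these 3 genes ranged widely. Vgf, a secreted neuropeptide precursor, rose by 4.53 on the log2 scale (SE 0.76, adjusted p = 0.0013), from at most 0.763 CPM to between 12.2 and 18.2. Myrf, a membrane-bound transcription factor, rose from 2.60, 6.79 and 5.22 CPM to 42.8, 105 and 132 (4.24, SE 0.40, adjusted p = 4e-05), with replicate 1 lowest in both media. Cacng7, a regulatory subunit of ion channels, was among the rises with the smallest adjusted p, from 8.86, 7.55 and 7.48 CPM to 45.2, 70.2 and 80.0 (3.03, SE 0.22, adjusted p = 1.4e-05).

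The largest falls went in the opposite direction, for Trpm1, Hoxc12, Cyp1a1 and Slc1a1 from clear coverage to near 0. These genes passed the 5 CPM filter only through their LIF/2i libraries, so low coverage in LIF follows from the choice. Trpm1, a cation channel of pigment cells and retina, had 17.1, 5.25 and 7.48 CPM in LIF/2i and 0, 0.579 and 0 in LIF (-5.61, SE 1.08, adjusted p = 0.0032). Hoxc12, a homeobox gene, had 6.87, 14.7 and 11.7 CPM in LIF/2i and 0.154, 0.289 and 0.223 in LIF (-5.50, SE 0.68, adjusted p = 0.00032). In LIF both were at or below 1 CPM in each library. Cyp1a1, a cytochrome P450 that is a classic target of the aryl hydrocarbon receptor, had 14.05, 64.5 and 41.5 CPM in LIF/2i and 0.769, 0.724 and 2.01 in LIF (-5.01, SE 0.68, adjusted p = 0.0003). Slc1a1, a glutamate transporter, had 30.1, 18.7 and 16.9 CPM in LIF/2i and 1.23, 0.145 and 1.23 in LIF (-4.59, SE 0.43, adjusted p = 4e-05). The absence of overlap between media was again a condition of the choice. Plagl1, an imprinted zinc finger transcription factor, fell from 244, 117 and 160.3 CPM to 8.31, 10.4 and 10.9 (-4.12, SE 0.30, adjusted p = 1.4e-05). Pramel6, a PRAME family gene of early embryos, fell from 33.1, 28.9 and 29.6 CPM to 2.77, 2.03 and 1.12 (-3.98, SE 0.39, adjusted p = 5.2e-05). The smallest adjusted p of any of these falls belonged to Gsto1, a glutathione transferase, with 321, 389 and 382 CPM in LIF/2i and 103, 101 and 112 in LIF (-1.79, SE 0.12, adjusted p = 1e-05). Its change was smaller but its replicates lay close together.

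Of 22 listed genes of the naive pluripotency network, all tested, 14 were lower in LIF, 1 was higher and 7 passed in neither direction, against 10.4% lower and 8.4% higher of all tested genes. The list's median log2 fold change was -0.90, and the counts were 0 higher and 16 lower with the replicate block. The 1 higher gene, Gbx2, lost its call with the block (adjusted p = 0.0575) and without WT LIF replicate 1 (adjusted p = 0.051), WT LIF replicate 3 (0.0503), KI LIF/2i replicate 2 (0.13), KI LIF/2i replicate 3 (0.117), KI LIF replicate 2 (0.0558) or KI LIF replicate 3 (0.121). Tfcp2l1, a LIF/STAT3 target that sustains self-renewal, fell from 753, 683 and 695 CPM to 102, 158 and 122 (-2.48, SE 0.21, adjusted p = 3.1e-05). Prdm14, a repressor of FGF receptor signalling and of de novo methylation, fell from 90.5, 60.3 and 84.4 CPM to 22.8, 25.9 and 16.8 (-1.85, SE 0.19, adjusted p = 5.3e-05). Jam2, a junctional adhesion molecule marking naive cells, fell from 392, 334 and 314 CPM to 79.2, 61.9 and 51.5 (-2.43, SE 0.20, adjusted p = 2.5e-05). All 3 separated the media in every replicate. List members were taken mainly by small p in this same comparison, which favours such genes, here and below. The libraries did not overlap for 34.9% of all tested genes. Tbx3 (-1.61), Nr0b1 (-1.46), Klf2 (-1.23), Nanog (-1.15), Zfp42 (-1.05) and Klf5 (-1.003) also fell. Nanog, the homeobox factor whose level sets resistance to differentiation, kept 731, 561 and 475 CPM in LIF against 1325, 1298 and 1303 in LIF/2i. Esrrb, an orphan nuclear receptor under direct control of TCF7L1, and Klf4, a Kruppel-like factor induced by STAT3, fell less, by 0.77 and 0.64 on the log2 scale. Every one of these falls kept its call under every alternative setting, but steady calls were among the grounds for describing a list member. Of 281 listed or named genes called, 156 kept their call throughout.

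The general pluripotency factors did not share that fall. Pou5f1, which encodes OCT4, read 887, 778 and 818 CPM in LIF/2i and 758, 726 and 892 in LIF (-0.06, SE 0.14, adjusted p = 0.79). Sox2, its partner on DNA, read 586, 527 and 574 CPM in LIF/2i and 673, 655 and 558 in LIF (0.16, SE 0.14, adjusted p = 0.47). The media overlapped for both genes. Of 16 core genes 6 were higher and 1 lower, against 8.4% higher and 10.4% lower of all tested genes. The list's median was 0.17, and 4 were higher and 0 lower without KI replicate 1 in both media. Higher calls numbered 2 without KI LIF/2i replicate 2, KI LIF/2i replicate 3 or KI LIF replicate 1, 3 without KI LIF replicate 3, and the 1 lower gene, Tdgf1, was at an adjusted p of 0.049 that reached 0.145 without KI LIF replicate 2. Utf1, a chromatin-bound factor of undifferentiated cells, rose from 609, 487 and 452 CPM to 1014, 1279.8 and 1488 (1.29, SE 0.17, adjusted p = 0.00023). Lin28b, which blocks maturation of let-7 microRNAs, rose from 5.50, 8.07 and 5.50 CPM to 15.5, 21.9 and 24.7 (1.70, SE 0.38, adjusted p = 0.0073). Both kept their calls in every setting, which was part of the ground for describing them.

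Formative and primed genes went mostly up. Of 21 in the file 19 were tested, 11 were higher and 3 lower, against 8.4% higher and 10.4% lower of all tested genes. The list's median log2 fold change was 1.61. Fgf5 and Fgf8, classic primed markers, had too few counts to test, at most 9 per library. Pou3f1, which encodes the POU factor OCT6, rose from 1.37, 1.66 and 1.98 CPM to 32.9, 32.0 and 42.9 (4.41, SE 0.35, adjusted p = 2.3e-05). Otx2, which redirects OCT4 to formative enhancers, rose from 1.07, 4.99 and 4.94 CPM to 35.2, 19.4 and 19.4 (2.72, SE 0.46, adjusted p = 0.0013), with replicate 1 at both extremes. The de novo methyltransferase Dnmt3a rose from 110.2, 111 and 92.3 CPM to 352, 581 and 710.2 (2.39, SE 0.28, adjusted p = 0.00012). Its relative Dnmt3b rose from 161, 146 and 132 CPM to 679, 336 and 415 (1.70, SE 0.22, adjusted p = 0.00025). The replicates thus differed in which enzyme rose more, replicate 1 having the lowest Dnmt3a and the highest Dnmt3b in LIF. Sall2 (2.31), Grhl2 (2.00), Lef1 (1.27) and Sox3 (1.26) rose in every setting tried, and the choice favoured genes with such steady calls. Foxd3, a forkhead factor required by pluripotent cells, went against the list, from 50.5, 67.6 and 56.0 CPM to 19.8, 11.6 and 23.0 (-1.67, SE 0.24, adjusted p = 0.00047). So did Lefty2, a secreted Nodal antagonist and Nodal target, from 79.6, 53.5 and 43.2 CPM to 4.92, 20.3 and 9.72 (-2.33, SE 0.44, adjusted p = 0.0026).

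**Figure D2:**
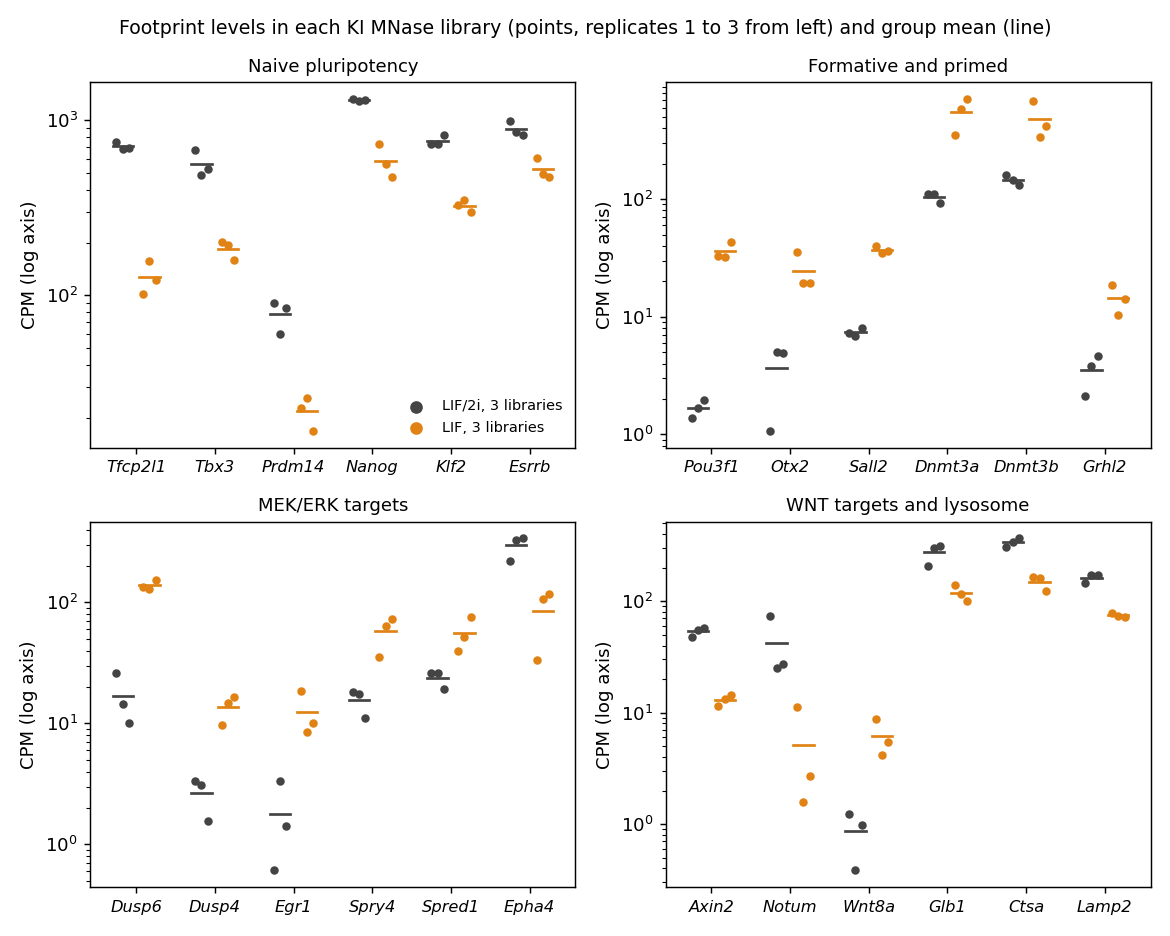
CPM on log axes in each of the 6 KI MNase libraries for genes of 4 kinds (naive, formative and primed, MEK/ERK targets, WNT targets with lysosomal genes), with LIF/2i in grey, LIF in orange, replicates from left to right and lines at the group means. Tfcp2l1 lies between 683 and 753 CPM in LIF/2i and between 102 and 158 in LIF, while Dusp6 runs from 10.0 to 26.3 in LIF/2i and from 129.7 to 154 in LIF.

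Of 28 listed targets of the MEK and ERK kinases 25 were tested, 9 were higher, 1 was lower and 15 passed in neither direction, with a median of 0.54. The share higher was above the 8.4% of all tested genes. The higher calls numbered 5 without KI LIF replicate 3 and the lower calls 2 without KI LIF replicate 1, and they numbered 11 and 2 without KI replicate 1 in both media. Dusp6, the phosphatase that inactivates ERK in the cytoplasm and is induced by it, rose from 26.3, 14.5 and 10.0 CPM to 134, 129.7 and 154 (3.04, SE 0.26, adjusted p = 3.1e-05). Dusp4, a nuclear phosphatase of the same class, rose from 3.36, 3.07 and 1.55 CPM to 9.69, 14.6 and 16.5 (2.35, SE 0.40, adjusted p = 0.0015). Egr1, an immediate early transcription factor, rose from 0.611, 3.33 and 1.41 CPM to 18.6, 8.54 and 10.2 (2.75, SE 0.47, adjusted p = 0.0015). The libraries of the media did not overlap for any of the 3, which the choice by small p favoured. Among membrane inhibitors of the pathway, Spry4 rose from 18.3, 17.5 and 11.2 CPM to 35.7, 64.1 and 72.8 (1.88, SE 0.30, adjusted p = 0.00097). Spred1, which holds RAF inactive, rose from 26.3, 26.0 and 19.2 CPM to 39.5, 51.8 and 75.7 (1.23, SE 0.24, adjusted p = 0.0037). Epha4, an ephrin receptor, was the 1 lower target, from 221, 328 and 338 CPM to 33.7, 106 and 116 (-1.79, SE 0.33, adjusted p = 0.0024).

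Targets of WNT and beta-catenin, the pathway that the GSK3 inhibitor imitates, moved both ways. Of 18 listed genes 13 were tested, 5 were lower and 3 higher, against 10.4% lower and 8.4% higher of all tested genes. The median of the 13 was -0.41. Without KI replicate 1 in both media they were 3 lower and 4 higher. Axin2, the scaffold that feeds back on beta-catenin, fell from 47.5, 55.4 and 57.9 CPM to 11.4, 13.3 and 14.4 (-2.03, SE 0.34, adjusted p = 0.0012). Notum, an enzyme that removes the lipid from WNT ligands, fell from 74.1, 25.3 and 27.2 CPM to 11.2, 1.59 and 2.68 (-3.06, SE 0.60, adjusted p = 0.0036). Wnt8a, a ligand, rose from 1.22, 0.384 and 0.988 CPM to 8.77, 4.197 and 5.47 (2.82, SE 0.48, adjusted p = 0.0015). Both negative regulators thus separated the media in each replicate, and so did the ligand in the other direction. The choice of list members by small p favoured such separation. Lef1, a TCF family factor that is both a target and a transducer, rose from 9.62, 11.3 and 10.2 CPM to 36.2, 19.97 and 18.99 (1.27, SE 0.29, adjusted p = 0.0084). Among pathway components the receptor Fzd7 rose from 45.045, 40.6 and 44.0 CPM to 95.9, 135 and 136 (1.502, SE 0.15, adjusted p = 4.9e-05). Sp5, a repressor induced by beta-catenin, had 13.9, 6.53 and 8.05 CPM in LIF/2i and 0, 0.724 and 0.894 in LIF (-3.998, SE 1.03, adjusted p = 0.016). Its adjusted p was 0.15 without KI replicate 1 in both media. The TCF/LEF letters CTTTGAT, searched on both strands of the 250 bases before the first listed start, occurred in Sp5 alone among 12 WNT targets with a RefSeq promoter (8.33%). They occurred in 3.23% of all 27025 promoters in that table.

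The targets of ATF4 and CHOP, the transcription factors of the integrated stress response, are shown first by their promoters. The binding element shared by C/EBP and ATF factors, with the letters TGATGNAAN, was searched on both strands of the 250 bases before each gene's first listed start (RefSeq, mouse build GRCm38.p6). It was found in 11 of 34 listed genes with a promoter in the table (32.4%), in 949 of 27025 promoters (3.51%) and in 188 of the 10081 promoters of tested genes (1.86%). The windows below carry the element in capitals and read 5′ to 3′ on the gene's strand. Asns has it on the gene's own strand, at 23 bases before the start (chr6:7693210-7693252, minus strand). The others have it on the opposite strand, so its complement is printed: Pck2 at 104 bases (chr14:55540142-55540190, plus), Tars at 16 (chr15:11399659-11399694, minus), Gars at 31 (chr6:55037950-55037998, plus), Chac1 at 194 (chr2:119351028-119351076, plus) and Nupr1 at 111 (chr7:126625553-126625601, minus). They are set together because all 6 genes hold the same element yet the first 3 were lower in KI LIF and the last 3 were not called.
Asns: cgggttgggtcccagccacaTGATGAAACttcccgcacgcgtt
Pck2: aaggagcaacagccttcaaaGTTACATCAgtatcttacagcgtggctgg
Tars: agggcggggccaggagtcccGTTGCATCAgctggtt
Gars: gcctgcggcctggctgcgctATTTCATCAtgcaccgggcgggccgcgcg
Chac1: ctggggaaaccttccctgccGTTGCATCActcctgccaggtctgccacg
Nupr1: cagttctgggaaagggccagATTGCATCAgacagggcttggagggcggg

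Most of the stress response targets did not pass the test in KI cells on leaving 2i. Of 40 listed genes 38 were tested, 4 were higher, 6 lower and 28 passed in neither direction, with a median log2 fold change of 0.03 (0.14 with library totals). These shares are near the 8.4% and 10.4% of all tested genes. Of 9 tested genes with the element in the promoter, 0 were higher and 3 were lower. Among listed genes whose promoter lacked it, 3 were higher and 2 lower, and whether calls go with the element was not tested. Asns, asparagine synthetase, had the largest change of the list, from 1798, 1419 and 1819 CPM in LIF/2i to 413, 265 and 255 in LIF (-2.43, SE 0.20, adjusted p = 2.5e-05). Slc7a1, a transporter of cationic amino acids, fell from 216, 163 and 172 CPM to 62.3, 85.5 and 95.6 (-1.17, SE 0.25, adjusted p = 0.0055). Both separated the media in all replicates and kept their calls in every setting. The choice of list members by small p and steady calls favoured both traits. Atf4 itself read 93.3, 117 and 99.1 CPM in LIF/2i and 81.9, 125 and 129.9 in LIF (0.12, SE 0.18, adjusted p = 0.70). Chac1, a glutathione-degrading enzyme, read 2.29, 1.02 and 0.565 CPM and then 2.92, 1.74 and 1.12 (0.56, SE 0.51, adjusted p = 0.49). Nupr1, a stress-induced chromatin protein, read 4.28, 12.9 and 7.62 CPM and then 2.77, 8.83 and 7.82 (-0.35, SE 0.41, adjusted p = 0.60). The media overlapped in all 3. Trib3, a pseudokinase that feeds back on ATF4, read 7.18, 13.2 and 12.1 CPM and then 16.0, 21.4 and 20.9 (0.84, SE 0.29). Its adjusted p was 0.059, and 0.021 with the replicate block, which calls it.

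The calls of the other 8 listed genes were less steady. Cth, which makes cysteine from cystathionine, fell by 1.60 on the log2 scale (SE 0.39, adjusted p = 0.013) and lost its call only with no filter on low counts (0.0567) and without KI replicate 1 in both media (0.143). Slc7a5, Slc38a2, Cebpb and Sars were the 4 higher genes. Higher calls numbered 0 without KI LIF/2i replicate 3, 1 without KI LIF/2i replicate 2 or KI LIF replicate 3, and 2 without KI LIF replicate 2, WT LIF replicate 1 or WT LIF replicate 3. Lower calls numbered 3 without KI LIF/2i replicate 3, KI LIF replicate 2 or KI LIF replicate 3, and the counts were 2 higher and 3 lower without KI replicate 1 in both media. Pck2, the mitochondrial enzyme that makes phosphoenolpyruvate, read 51.6, 51.6 and 54.2 CPM in LIF/2i and 29.5, 32.6 and 35.0 in LIF (-0.70, SE 0.22, adjusted p = 0.042). Its adjusted p was 0.066 with the replicate block and reached 0.101 without KI LIF replicate 2. Tars, threonyl-tRNA synthetase, read 445, 473 and 441 CPM and then 368, 288 and 356 (-0.43, SE 0.12, adjusted p = 0.028). Its adjusted p was 0.118 without KI LIF replicate 2 and 0.0953 without KI LIF/2i replicate 2.

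The same genes in WT cells gave 25 higher and 1 lower of 38, with a median of 0.97, where 9.97% of all tested genes were higher and 11% lower. The difference between the responses (KI minus WT, log2) was tested for each gene. It was called for 43 of 12806 genes (0.336%), 13 positive and 30 negative, and 5 of the 30 were stress response targets. Asns differed by -1.84 (SE 0.27, adjusted p = 0.012), with a WT log2 fold change of -0.59 (adjusted p = 0.043). Psat1, which makes phosphoserine for serine synthesis, read 149, 155 and 144 CPM in KI LIF/2i and 195, 171 and 175 in KI LIF (0.27, SE 0.14, adjusted p = 0.20). Its mean in WT cells went from 122 to 402 CPM, and the difference was -1.45 (SE 0.20, adjusted p = 0.0081). Pck2 (-1.74, adjusted p = 0.030) and the tRNA synthetases Nars (-1.09) and Aars (-1.04) were the others. Atf4, whose WT fold change was 1.03 (adjusted p = 0.0021), differed by -0.91 (SE 0.26, adjusted p = 0.18). With the replicate block 16 listed genes differed, Atf4 among them (adjusted p = 0.033), and without KI replicate 1 in both media 15 did. The count fell to 1 without WT LIF replicate 1, 2 without WT LIF/2i replicate 1 or WT LIF replicate 3, and 3 without WT LIF/2i replicate 3, KI LIF/2i replicate 2, KI LIF/2i replicate 3 or KI LIF replicate 2, and it was 9 without KI LIF/2i replicate 1. Psat1 was called in each of these settings, and Asns had an adjusted p of 0.0518 without WT LIF/2i replicate 1 and 0.0534 without WT LIF replicate 1. In 33 of 38 genes the difference was negative, called or not. The matching share of all tested genes was not taken, so this count has no background to be read against.

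**Figure D3:**
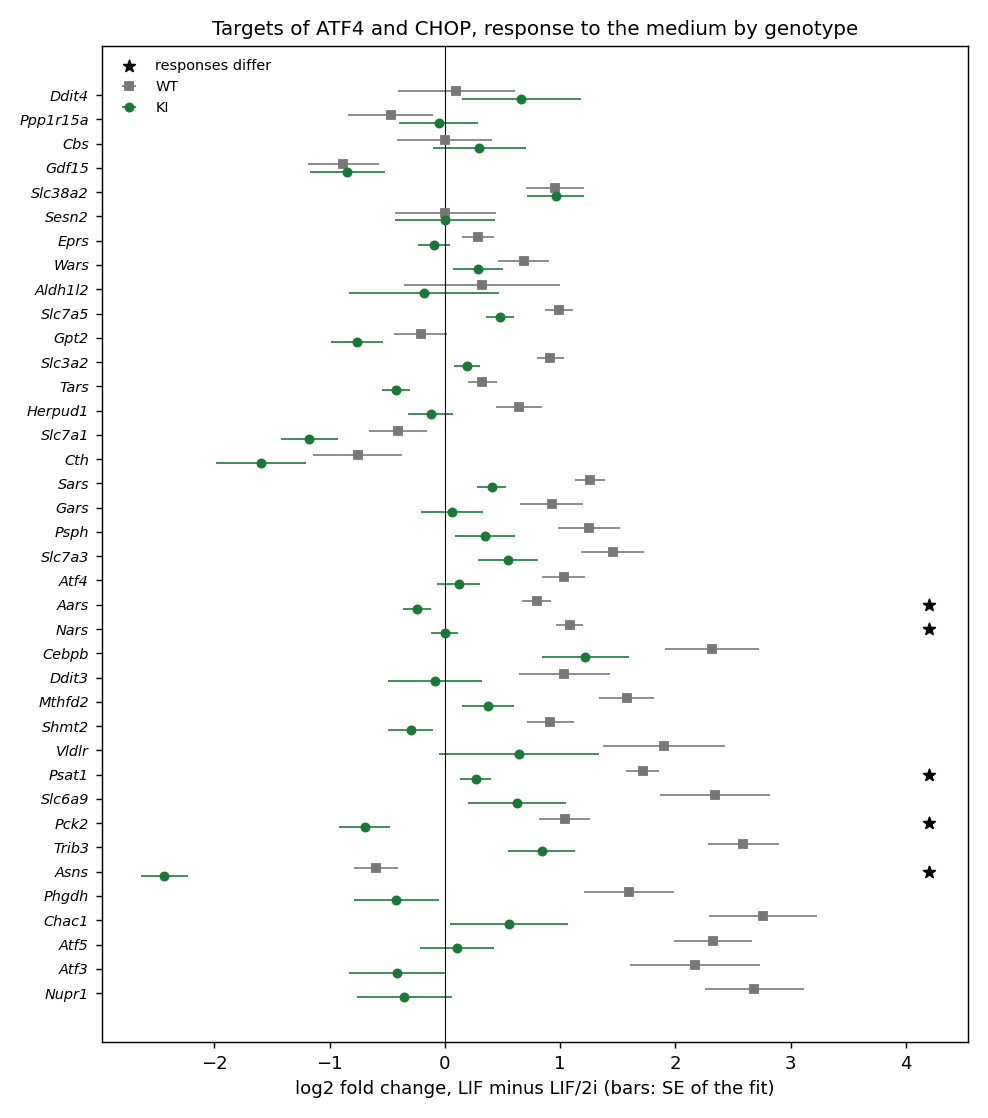
LIF minus LIF/2i log2 fold changes (x axis, bars are SE of the fit) of the 38 tested targets of ATF4 and CHOP in WT cells (grey squares) and KI cells (green circles), ordered by the difference between genotypes, with stars where that difference was called. Most grey squares lie to the right of 0 and most green circles near 0, with Asns lowest at -2.43 in KI cells.

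Among the factors upstream, the subunits and regulators of eIF2 and eIF2B gave 0 higher and 3 lower of 22, near the 8.4% and 10.4% of all tested genes. The counts were 1 and 5 with the replicate block and 1 and 4 without KI replicate 1 in both media. Eif2b5, the catalytic subunit of the exchange factor that phosphorylated eIF2 blocks, fell from 689, 583 and 585 CPM to 310.5, 239 and 299 (-1.13, SE 0.14, adjusted p = 0.00015). Ppp1cb, a catalytic subunit of protein phosphatase 1, fell less, from 489.7, 540.3 and 502 CPM to 406, 359 and 373 (-0.43, SE 0.10, adjusted p = 0.0091). Targets of the unfolded protein response gave 0 higher and 1 lower of 24 (7 lower with the replicate block, 5 lower without KI replicate 1 in both media, and 6 lower without KI LIF replicate 1). The 1 call was lost without WT LIF replicate 1, WT LIF replicate 3, KI LIF/2i replicate 2, KI LIF/2i replicate 3, KI LIF replicate 2 or KI LIF replicate 3, each leaving 0.

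Of 35 listed lysosomal genes 14 were lower, 1 was higher and 20 passed in neither direction, against backgrounds of 10.4% lower and 8.4% higher, with a median log2 fold change of -0.39 (-0.29 with library totals). The lower genes numbered 9 in a fit of the 6 KI libraries alone, and 16 (with 2 higher) without KI replicate 1 in both media. The E-box CACGTG, the core of the site bound by TFEB and TFE3, was searched in the same 250-base windows. It was found in 10 of 29 listed genes with a promoter (34.5%), in 6.05% of all promoters and in 8.72% of those of tested genes. Of the 10 genes with it 4 were lower, as were 8 without it. The 4 are printed with 1 E-box each in capitals, because they cover single and repeated matches: Lamp1, with 4 matches of which those at 28 and 15 bases before the start lie in the window and the one at 15 is in capitals (chr8:13159126-13159160, plus strand), Glb1 at 48 bases (chr9:114401010-114401055, plus), Ctsl at 236 (chr13:64370731-64370770, minus) and Gla, with 2 matches of which the one at 194 is shown (chrX:134601174-134601219, minus).
Lamp1: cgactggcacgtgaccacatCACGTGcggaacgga
Glb1: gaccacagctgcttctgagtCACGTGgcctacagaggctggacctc
Ctsl: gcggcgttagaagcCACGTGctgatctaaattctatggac
Gla: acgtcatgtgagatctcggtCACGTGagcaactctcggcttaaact

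Among the hydrolases, Glb1, beta-galactosidase, fell from 208, 301 and 316 CPM to 140.2, 116 and 101 (-1.21, SE 0.18, adjusted p = 0.0006). Ctsa, the protective protein that stabilises it, fell from 307, 343 and 367 CPM to 164, 160.4 and 124 (-1.18, SE 0.14, adjusted p = 0.00013). No LIF library reached a LIF/2i library for either gene, a separation that the choice by small p favoured. Of the membrane proteins, Lamp2 fell from 145, 172 and 173 CPM to 78.9, 74.1 and 71.7 (-1.12, SE 0.19, adjusted p = 0.0015). Lamp1, the gene with 4 E-boxes, fell from 442, 491 and 504 CPM to 333, 316 and 309.9 (-0.58, SE 0.12, adjusted p = 0.0046). Npc2, a cholesterol carrier of the lumen, fell by 0.83 on the log2 scale. Ctsl, a cysteine protease, read 498, 525 and 557 CPM and then 228, 418 and 329 (-0.70, SE 0.17, adjusted p = 0.013), and its adjusted p was 0.0735 in a fit of the 6 KI libraries alone. Gla, alpha-galactosidase, read 54.5, 50.1 and 56.7 CPM and then 38.2, 34.9 and 36.3 (-0.56, SE 0.16, adjusted p = 0.027), and its adjusted p was 0.0884 without KI LIF/2i replicate 3, 0.0871 without KI LIF replicate 2 and 0.0796 without KI LIF replicate 3. Tfe3, one of the transcription factors of these genes, went the other way, from 76.7, 98.5 and 94.6 CPM to 173, 129.98 and 169 (0.81, SE 0.15, adjusted p = 0.0023).

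Antioxidant targets of NRF2 gave 0 higher and 7 lower of 20, with a median of -0.34, and 4 lower without KI LIF/2i replicate 2. The shares of all tested genes were 8.4% higher and 10.4% lower. Nfe2l2, which encodes NRF2 itself, fell from 237, 306 and 276 CPM to 151, 149.5 and 160.2 (-0.83, SE 0.13, adjusted p = 0.00077). Gsr, glutathione reductase, fell from 268, 303 and 306 CPM to 209, 177 and 182 (-0.63, SE 0.11, adjusted p = 0.0015). Txn1, thioredoxin, fell from 253, 242 and 267 CPM to 181, 184 and 175 (-0.50, SE 0.11, adjusted p = 0.0061). The changes were under 2-fold. The media were separate in all 3 genes, which the choice by small p favoured.

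Matrix genes moved in both directions. Of 22 collagen and matrix genes 8 were higher, 3 were lower and 11 passed in neither direction, with a median of 0.38. Among all tested genes 8.4% were higher and 10.4% lower. Without KI LIF/2i replicate 2, 5 of the 22 were higher. The 3 lower genes encode fibronectin, nidogen and a laminin chain. Fn1, fibronectin, fell from 3831, 4518 and 4107 CPM to 1472, 1421 and 1214 (-1.60, SE 0.15, adjusted p = 4e-05). Nid1, which links laminin to collagen IV, fell from 423, 626 and 733 CPM to 92.9, 126 and 128 (-2.36, SE 0.23, adjusted p = 4.3e-05). The laminin gamma chain gene Lamc1 fell from 972, 1037 and 975 CPM to 457, 443 and 504 (-1.09, SE 0.12, adjusted p = 8.6e-05). The laminin beta chain gene Lamb1 rose, from 104, 113 and 88.2 CPM to 246, 249.97 and 309 (1.40, SE 0.16, adjusted p = 0.00012), so chains of 1 laminin trimer moved in opposite directions. Serpinh1, the collagen chaperone, rose from 76.0, 152 and 167 CPM to 228, 317 and 372 (1.21, SE 0.29, adjusted p = 0.011). Col1a2, a chain of collagen I, read 0.305, 1.02 and 1.83 CPM in LIF/2i and 46.3, 46.6 and 27.6 in LIF (5.199, SE 1.09, adjusted p = 0.0057), but its adjusted p was 0.121 without KI replicate 1 in both media.

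Markers of fibroblasts and feeder cells moved with the collagens. Of 20 in the file 13 were tested, with 5 higher and 0 lower, against 8.4% higher and 10.4% lower of all tested genes. The median was 1.12, and 3 of the 5 were collagen chains counted above. The higher calls numbered 3 without KI LIF/2i replicate 2, without KI LIF replicate 2 and without KI replicate 1 in both media. The summed level of all 20 was 869, 368 and 326 CPM in LIF/2i and 1140.1, 705 and 683 in LIF, so LIF/2i replicate 1 was above 2 of the LIF libraries. Of the defining markers not tested, Dcn had 0, 0 and 0 counts in LIF/2i and 4, 4 and 3 in LIF. Lum, Postn, Twist2, Prrx1, Mgp and Fap had at most 2 counts in any of the 6 libraries. The part of such cells in the collagen result was not tested.

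Markers of other lineages were mixed. Backgrounds for the counts in this paragraph are 8.4% higher and 10.4% lower of all tested genes. The share of trophoblast markers called, 17.6%, was near the 18.8% of all tested genes. Of 17 tested trophoblast markers 1 was higher and 2 lower, but 5 and 4 with the replicate block, and 3 higher without WT LIF replicate 2, WT LIF replicate 3 or KI LIF/2i replicate 3. Their summed level was 244, 344 and 399 CPM in LIF/2i and 407, 443 and 438 in LIF, without overlap. Hand1, a transcription factor of trophoblast and lateral mesoderm and the 1 higher gene, had 0, 0 and 0.141 CPM in LIF/2i and 4.62, 7.53 and 10.7 in LIF (6.79, SE 0.74, adjusted p = 8.5e-05). Of 16 mesoderm and primitive streak markers 4 were tested, with 1 higher and 1 lower. The 1 higher gene was again Hand1, which is in both lists. Gsc, a homeobox gene of the organiser, fell from 5.65, 8.71 and 8.61 CPM to 1.85, 0.868 and 1.23 (-2.53, SE 0.39, adjusted p = 0.00073). The summed level of those 16 was 44.3, 27.0 and 23.9 CPM in LIF/2i and 23.8, 27.4 and 29.4 in LIF. Of 14 neuroectoderm markers 8 were tested, with 3 higher and 0 lower. Among the 3 was Gbx2, also the 1 higher naive gene. Its call was lost with the block (adjusted p = 0.0575) and without any of several single libraries, as given above. The 14 summed to 146, 201 and 183 CPM in LIF/2i and 261, 265 and 301.0 in LIF, again without overlap. Sox1, an early factor of the neural plate, rose from 1.07, 2.43 and 2.12 CPM to 7.23, 24.6 and 22.7 (3.25, SE 0.46, adjusted p = 0.00043), while Neurog2 had 0 counts in all 6 libraries. Extraembryonic endoderm markers gave 4 higher and 1 lower of 17 (3 and 0 when KI replicate 1 of both media was left out, 2 higher without KI LIF/2i replicate 2). Their summed level was 1970, 1891 and 2081 CPM in LIF/2i and 2231, 2242 and 2167 in LIF. Lrp2, an endocytic receptor, rose from 51.2, 132 and 102 CPM to 302, 214 and 317 (1.55, SE 0.29, adjusted p = 0.0028). Afp, Ttr and Apoa1, which mark visceral endoderm, had at most 3 counts in any library.

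Imprinted genes, expressed from 1 parental copy, gave 8 higher and 1 lower of 20 tested, against 8.4% higher and 10.4% lower of all tested genes. The list's median was 0.84. Its counts were 5 higher without KI LIF replicate 2, and 3 lower without KI LIF/2i replicate 1 or without KI replicate 1 in both media. Peg3, a maternally imprinted zinc finger gene, rose from 158, 267 and 230.5 CPM to 502, 549 and 755 (1.46, SE 0.23, adjusted p = 0.00089). Mest, a hydrolase-like protein first found in mesoderm, rose from 89.2, 75.2 and 56.7 CPM to 241, 229 and 229 (1.66, SE 0.26, adjusted p = 0.00091). Dlk1, a transmembrane ligand related to Delta, rose from 1.68, 2.05 and 1.55 CPM to 12.001, 8.39 and 9.61 (2.49, SE 0.29, adjusted p = 0.00012). The media were separate in each of them, which the choice by small p favoured. Plagl1, described above, was the 1 listed gene lower. Dio3, an imprinted deiodinase gene near Dlk1 that is not in the list and is among the 12 largest falls, went from 8.40, 23.3 and 16.7 CPM to 0.154, 0.434 and 0.782 (-5.001, SE 0.56, adjusted p = 9.1e-05).

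**Figure D4:**
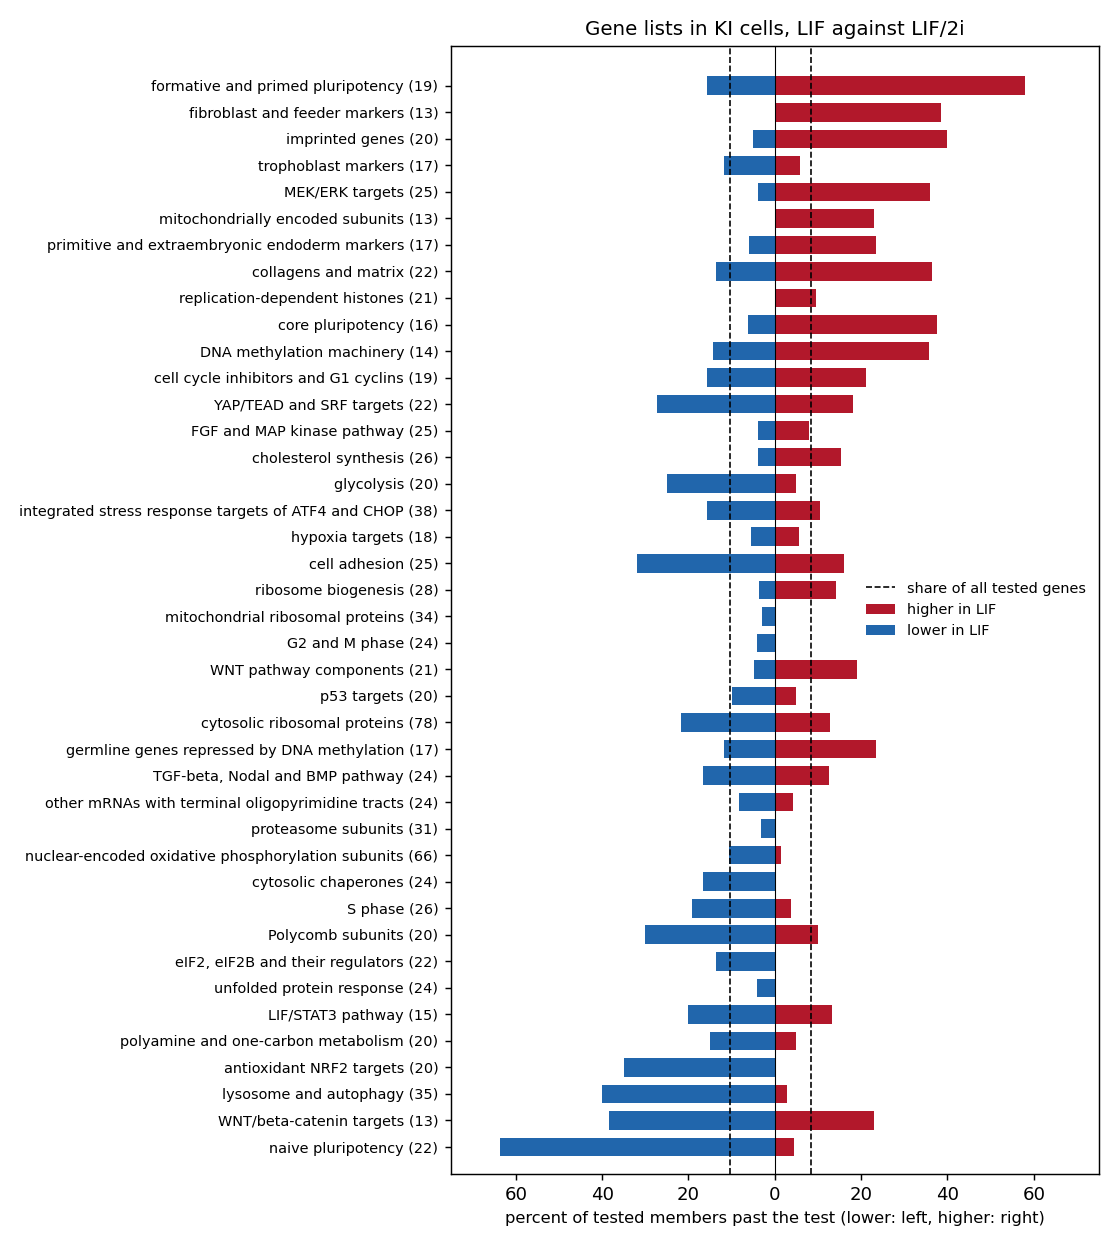
For each gene list shown (number of tested members in parentheses, ordered by median log2 fold change), bars give the percent of tested members lower in KI LIF (blue, left) and higher (red, right), and dashed lines mark the shares of all tested genes, 10.4% and 8.4%. The neuroectoderm, mesoderm, sex-linked and 2-cell-like lists, with fewer tested members, are not shown. Naive pluripotency and lysosome lists have the longest bars to the left and the formative and primed list the longest to the right.

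The 4 KI libraries made with RNase I gave a check of direction with another nuclease. The labels do not say whether lysates were shared with the MNase libraries, so these 4 may not come from new cultures. The 4 libraries held 16359039 and 4366587 counts in LIF/2i and 2285755 and 1965050 in LIF, so both LIF libraries were shallower. With 2 libraries a group, 414 of 12095 genes were called (3.42%). Of the 2403 genes called with MNase, 2302 were tested here. The sign was the same for 2184 of them (94.9%), against 69.1% of the genes not called with MNase. In this fit 378 were called in the same direction and 0 in the opposite one. The count with the same sign was 2174 (94.4%) with library totals, and 1801 of 1898 (94.9%) for genes at 5 CPM or more. Tfcp2l1 read 853 and 739 CPM in LIF/2i and 115 and 156 in LIF (-2.56, SE 0.21, adjusted p = 0.0071). Dusp6 read 20.2 and 9.29 CPM and then 109.8 and 138 (3.00, SE 0.36, adjusted p = 0.0097). Both repeated the MNase values closely, at -2.48 and 3.04. Other genes moved less with RNase I. Lamp1 read 432 and 440.4 CPM and then 398 and 387 (-0.15, SE 0.15, adjusted p = 0.67). Txn1 read 237 and 301 CPM and then 200.1 and 309 (-0.08, SE 0.22, adjusted p = 0.90). For these genes the fall seen with MNase was not called with RNase I.

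**Figure D5:**
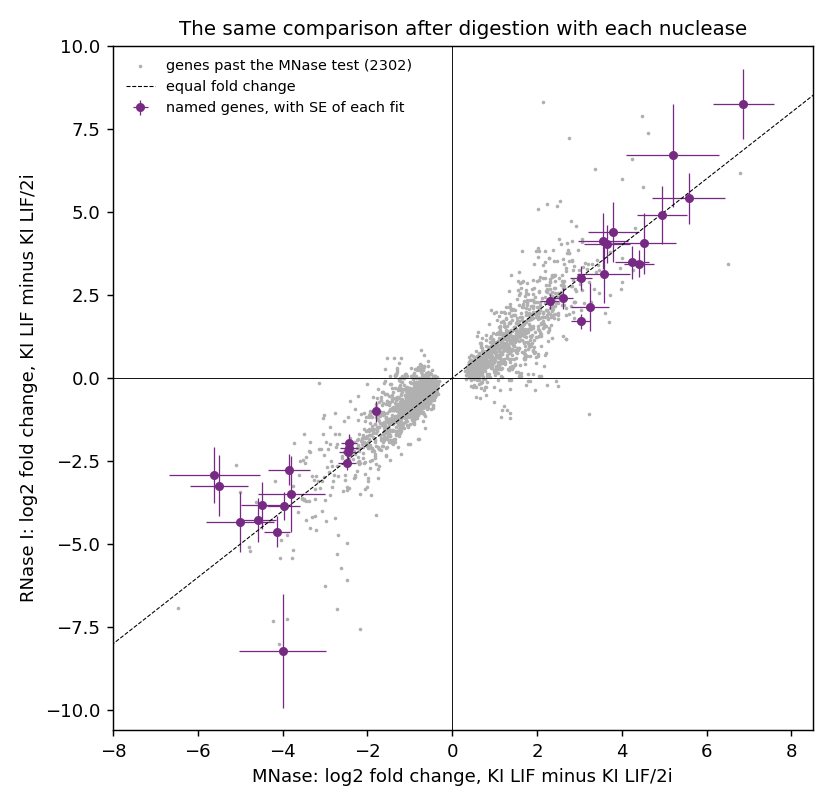
LIF minus LIF/2i log2 fold changes in KI cells with MNase (x axis) and with RNase I (y axis) for the 2302 genes called with MNase and tested with both (grey points), with named genes in purple with SE bars and a dashed line at equal fold change. The sign is the same for 2184 genes, at the lower left and the upper right.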

How the data were processed

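Ribosome footprints were trimmed with cutadapt 3.4, aligned with Bowtie 1.3.0 and collapsed by molecular barcode with UMI-tools 1.0.1, per the submitters' processing notes; a genome build for this table was not found in any label or header. The deposited table holds the authors' raw counts per gene, 22416 genes in 20 libraries. Gene names are in capitals there and 21755 were given mouse spelling through RefSeq. R 4.3.3 and edgeR 4.0.16 were used (filterByExpr, TMM, robust glmQLFit, glmQLFTest) on 12 MNase libraries with 4 group means, giving 12806 tested genes. The KI medium contrast and the KI minus WT difference were tested, with Benjamini-Hochberg adjusted p under 0.05 as the call. RNase I libraries, 8 in all, were fitted separately. The test was checked on simulated data. Alternatives were DESeq2 1.42.0, other scalings and filters, the KI libraries alone, the replicate number as a block, thinned counts and each library left out. Same-numbered KI libraries deviated together (r = 0.563, 0.315 and 0.393), although replicates 2 and 3 crossed as strongly (0.367 and 0.404), while WT pairs gave r = 0.015, 0.078 and 0.035; the pairing is read from the counts, not from a label. Genes named are the 12 largest rises and falls and the 6 smallest adjusted p values of each direction among called genes of at least 5 CPM without overlap, predicted genes left out, with up to 5 or more members of each list, of which those with the steadiest calls are described. The comparison and the 45 lists, with 1088 entries found in the file, were chosen with earlier results of these data known. Micrococcal nuclease cuts preferentially beside A and T, so levels are not compared between genes.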

Additional observations from a re-analysis of the deposited data

Results flagged for a closer look

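The medium response differed between KI and WT cells, by a test of the difference itself, for the genes given here as KI minus WT log2 values. Among signalling genes, Spry4 differed by -3.75: it rose in both genotypes, from a WT mean of 1.32 to 64.2 CPM against 18.3, 17.5 and 11.2 to 35.7, 64.1 and 72.8 CPM in KI cells. Lin28a, which like Lin28b blocks let-7 maturation, differed by -3.46, from a WT mean of 6.16 to 152 CPM against 98.6, 45.3 and 36.7 to 169, 102 and 134 CPM in KI cells. For both genes the LIF levels of the genotypes were close and the LIF/2i levels were further apart. Lef1 (2.65) and Sox3 (2.50) moved in opposite directions, higher in KI LIF and lower in WT LIF. Cd63, a tetraspanin of late endosomes, differed by -2.79, with 11.3, 23.0 and 18.3 CPM in KI LIF/2i and 3.54, 2.75 and 2.68 in KI LIF against WT means of 11.5 and 13.4. Amotl2, a YAP-binding junction protein, differed by -1.63 and Rhox9, an X-linked homeobox gene, by -3.09.

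Among metabolic and stress genes the differences were -1.84 for Asns, -1.45 for Psat1, -1.74 for Pck2, -1.09 for Nars and -1.04 for Aars. They were -1.15 for Cox5a, a subunit of cytochrome oxidase, and 2.98 for Ahcy, which hydrolyses S-adenosylhomocysteine. Ahcy had few counts, at 0.916, 0.512 and 0.706 CPM in KI LIF/2i and 3.38, 3.04 and 2.57 in KI LIF. Its KI medium change was 2.05 (SE 0.41) with MNase and 0.07 (SE 0.49) with RNase I, so its value is uncertain.

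Ribosomal protein and histone genes have near-identical copies, and mitochondrially encoded genes have nuclear copies, so reads can be split among them. The differences were 2.81 for MT-CO2, 2.66 for MT-CO3, 2.52 for H2ac18, 2.35 for HIST1H4M, -3.02 for Rpl7, -2.06 for Rplp0 and -1.53 for Rpl37a. With RNase I the KI medium change of Rplp0 was 0.12 (SE 0.21) against -1.33 (SE 0.17) with MNase. That of MT-CO2 was 0.37 (SE 0.50) against 2.16 (SE 0.33), and that of MT-CO3 was 0.46 (SE 0.35) against 1.98 (SE 0.25). H2ac18 changed by 0.17 (SE 0.60) with RNase I against 1.62 (SE 0.30) with MNase. HIST1H4M went the other way with RNase I, at -1.16 (SE 0.53) against 1.15 (SE 0.30). The differences of all these genes are therefore uncertain.

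MT-CO3, Spry4, Lin28a, Cd63, Rplp0 and Psat1 kept their calls in all 21 alternative settings with a value for them. The other genes lost theirs in 2 to 11 settings, up to an adjusted p of 0.142 for Ahcy without KI LIF/2i replicate 2.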

How the results depend on the processing

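Direction did not change in any alternative fit of the MNase libraries for any listed or named gene called. Of those 281 genes 156 kept their call throughout. The RNase I check is not among these settings. In it 2184 of 2302 called genes had the same sign, and some listed genes did not. Rpl37a, for example, changed by -0.67 with MNase and by 0.69 with RNase I. With 1 library left out, the genes called in KI cells ranged from 1482 (without KI LIF replicate 3) to 2773 (without KI LIF replicate 1), those higher from 618 to 1282, those lower from 864 to 1491 and called list members from 163 to 265. The replicate block, fitted on the replicate number, gave 1682 higher, and thinning every library to the smallest gave 714 higher. Genes whose response differed between genotypes numbered 43, with a range of 10 (without WT LIF replicate 1) to 145 (without KI LIF/2i replicate 1) when 1 library was left out, 215 with DESeq2, 273 with the replicate block and 483 without KI replicate 1 in both media. Under the pairing Gbx2, Trib3 and Pck2 changed their KI medium calls as given beside them, Rhox9 gained one (adjusted p of 0.106 without the block and 0.0265 with it), and Amotl2 lost its genotype difference under the block (adjusted p = 0.0527). Depth limits genes with a few counts, such as Fgf5, and 2 RNase I libraries a group limit that check.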

Other observations

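Of 25 adhesion genes tested in KI cells 4 were higher in LIF, 8 were lower and 13 passed in neither direction, where 8.4% of all tested genes were higher and 10.4% lower, and 4 were lower without WT LIF replicate 1, KI LIF/2i replicate 3 or KI LIF replicate 3. Itga3, an integrin alpha chain that binds laminin, rose from 87.3, 85.1 and 81.2 CPM to 206, 206 and 285 (1.46, SE 0.15, adjusted p = 5.5e-05). Itgav, the alpha chain of vitronectin receptors, fell from 239, 198 and 196 CPM to 115, 110.1 and 117 (-0.89, SE 0.17, adjusted p = 0.0027). Alpl, the alkaline phosphatase by which stem cell colonies are stained, fell from 583, 448 and 531 CPM to 358, 251 and 237 (-0.89, SE 0.16, adjusted p = 0.0018). Of 22 YAP and SRF targets 4 were higher and 6 lower, against the same 8.4% and 10.4%, and 3 and 8 without KI replicate 1 in both media. Wwtr1, which encodes the YAP relative TAZ, fell from 83.5, 57.9 and 63.4 CPM to 22.8, 36.0 and 25.5 (-1.28, SE 0.20, adjusted p = 0.00091), while Tpm2, a tropomyosin, rose from 18.5, 19.1 and 15.9 CPM to 46.9, 44.9 and 48.3 (1.39, SE 0.32, adjusted p = 0.0093).

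Where 8.4% of all tested genes were higher and 10.4% lower, 4 of 19 cell cycle inhibitors and G1 cyclins were higher and 3 lower. They were 2 and 5 with the replicate block, 3 and 6 without KI replicate 1 in both media, and 1 higher without KI LIF/2i replicate 3 or KI LIF replicate 3. With any other single library left out, 2 or 3 were higher. Among them Ccnd2, a D-type cyclin, rose from 1.07, 1.66 and 1.27 CPM to 12.6, 5.79 and 6.48 (2.60, SE 0.46, adjusted p = 0.0018). Cdkn1a, the inhibitor p21, fell from 129.8, 181 and 197 CPM to 59.2, 40.5 and 38.3 (-1.88, SE 0.30, adjusted p = 0.0009). Ccne1 and Ccne2, the E-type cyclins, moved in opposite directions, by 0.89 (SE 0.16, adjusted p = 0.0021) and -1.32 (SE 0.27, adjusted p = 0.0046). In metabolism, Tdh, the threonine dehydrogenase that feeds one-carbon units in mouse stem cells, fell from 207, 169.9 and 165 CPM to 70.2, 59.1 and 63.9 (-1.49, SE 0.28, adjusted p = 0.0028). Gcat, the next enzyme of that path, fell from 135, 126 and 121 CPM to 68.9, 70.5 and 67.7 (-0.88, SE 0.13, adjusted p = 0.00046). Pdk1, which holds pyruvate dehydrogenase inactive, rose from 28.4, 23.6 and 21.7 CPM to 104, 104 and 139 (2.23, SE 0.26, adjusted p = 0.00013), and the glucose transporter gene Slc2a3 fell by 0.88 on the log2 scale.

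In chromatin and the germline, Mtf2, a Polycomb-like subunit, fell from 460.1, 528 and 521 CPM to 236, 266 and 253 (-0.9997 on the log2 scale, SE 0.12, adjusted p = 0.00012). Its relative Phf19 rose from 1.68, 5.89 and 5.08 CPM to 9.39, 18.1 and 17.4 (1.81, SE 0.42, adjusted p = 0.0087). Dazl, an RNA-binding protein of germ cells, fell from 384, 325 and 355 CPM to 216, 106 and 71.8 (-1.44, SE 0.31, adjusted p = 0.0063), and Ddx4, the germ cell helicase, rose from 15.7, 23.8 and 26.8 CPM to 55.4, 40.8 and 53.3 (1.17, SE 0.27, adjusted p = 0.0093). All of these genes separated the media in every replicate, but they were chosen for small p. The libraries also did not overlap for 34.9% of all tested genes. Cytosolic ribosomal protein genes gave 10 higher and 17 lower of 78, against 8.4% higher and 10.4% lower of all tested genes. Their median was -0.09, but 0.01 with library totals. The counts were 7 and 8 without KI LIF/2i replicate 2 or KI LIF replicate 3. With RNase I the median was 0.25 over 74 of these genes, with 0 higher and 0 lower. In that fit 3.42% of all tested genes were called. Many of these genes also have near-identical processed copies, so the MNase counts are uncertain.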
